A study of Mus musculus with 11 samples.

Results

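The Bcl2 family decides whether a cell keeps an intact outer mitochondrial membrane or releases the proteins that start apoptosis. Pro-survival members bind and hold the effectors BAX and BAK, which otherwise form pores in that membrane, and the BH3-only members bind the pro-survival proteins or the effectors and tip the balance towards death. In the epidermis the family is known from hair follicle regression and from the response of stem cells to DNA damage. The genes described here are 10 listed members of this family, matched by symbol to Ensembl release 96, out of 55536 genes in the files. They are the pro-survival genes *Bcl2*, *Bcl2l1* (BCL-XL) and *Mcl1*, the effector genes *Bax* and *Bak1*, and the BH3-only genes *Bad*, *Bid*, *Bcl2l11* (BIM), *Bbc3* (PUMA) and *Pmaip1* (NOXA). Each was found once, and all 10 were among the 20307 genes that passed the filter on low counts. The lowest count of a member in any library was 76 (*Bid*).

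RNA was sequenced from epidermal cells of the dorsal skin, sorted by flow cytometry from male *CD4Cre R26-tdT* mice on a C57Bl6/N background. All groups carry CD4-driven Cre and the Cre-dependent tdT reporter, so tdT+ cells are those in which Cre was active in the cell or in a precursor of it, T cells included, and tdTneg cells are the unlabelled cells of the same mice. The 11 libraries comprise 3 of tdT+ and 3 of tdTneg CD49f+CD34+ cells, which the labels give as SCA-1 negative and which hold the bulge stem cells of the hair follicle, and 3 of tdT+ and 2 of tdTneg CD49f+CD34+SCA-1+ cells, here also called the SCA-1+ population. Each library holds RNA from the cells of 2 pooled mice, of 29 weeks in replicate 1 and of 32 weeks in replicates 2 and 3.

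Total counts per library ran from 17409131 to 46542177 and were highest, 39364902 to 46542177, in tdTneg CD49f+CD34+ cells. The basal keratinocyte genes *Krt5*, *Krt14* and *Itga6* (CD49f) were detected in all libraries. *Ly6a*, which encodes SCA-1, was higher in CD49f+CD34+SCA-1+ cells (log2 fold change 4.12), but *Cd34* had only 27.4 ± 7.2 normalized CPM (reads counted on a gene per 1000000 of its library, after TMM scaling; SD, n = 3) in tdT+ CD49f+CD34+SCA-1+ cells, against 682 ± 193 (SD, n = 3) in tdT+ CD49f+CD34+ cells, although both were sorted as CD34+. In tdTneg cells it had 351 ± 44.6 (SD, n = 2) and 877 ± 246 (SD, n = 3). One row of the files is no Ensembl gene and had 133 to 307 CPM in 5 of the 6 tdT+ libraries and 2.54 to 4.89 CPM in the tdTneg libraries. The library labelled tdT+ CD49f+CD34+ replicate 2 had 2.05 CPM of it, the level of tdTneg libraries, so each edgeR count of called members below, past both the p and the fold threshold, was also computed without that library. Its omission changed none of these counts, but of the 3 members past the p threshold, whatever their fold, between the populations (*Pmaip1*, *Bak1* and *Bid*) 1 was left, *Pmaip1*. In each comparison of tdT+ with tdTneg CD49f+CD34+ cells that library is counted as tdT+ by its label only. The replicates of a group are separate pools of mice, and p-values measure the spread between the libraries of a group. Libraries of different groups with the same replicate number are read as sharing a pool. The main fit takes all libraries as independent, and the pairing enters only the alternative with the replicate number as a block.

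*Mcl1* was the most abundant member in every group, and per kilobase of exon no other member came near it. *Mcl1* encodes a short-lived pro-survival protein that binds BAK, BIM and NOXA. Its level per kilobase was 101 ± 25.8 CPM in tdT+ and 92.6 ± 15.2 in tdTneg CD49f+CD34+ cells (SD, n = 3 each), and 105 ± 7.97 in tdT+ (SD, n = 3) and 122 ± 3.53 in tdTneg (SD, n = 2) CD49f+CD34+SCA-1+ cells. It made up 83.8% to 91.7% of the summed level of the 3 pro-survival genes in each of the 11 libraries, and *Bcl2* made up 1.72% to 5.48%. The effector *Bax* followed in CD49f+CD34+ cells with a mean of 16.8 (tdT+) and 21.4 (tdTneg) CPM per kilobase, and its libraries, at 15 to 25.3, did not overlap those of *Mcl1*, at 72.5 to 122. Below *Bax* in tdT+ CD49f+CD34+ cells came *Bad*, *Bcl2l1*, *Bbc3*, *Pmaip1* and *Bak1*, from 10.6 down to 5.06 CPM per kilobase, and each of these overlapped its neighbour in the order over its 3 libraries. *Bcl2*, at 2.92, overlapped *Bak1* above it, *Bcl2l11*, at 2.32, lay just below the lowest *Bcl2* library, and *Bid*, at 1.99, overlapped *Bcl2l11*. The length used is that of all annotated exons of a gene, so these levels do not take account of which transcript a cell makes.

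**Figure D1:**
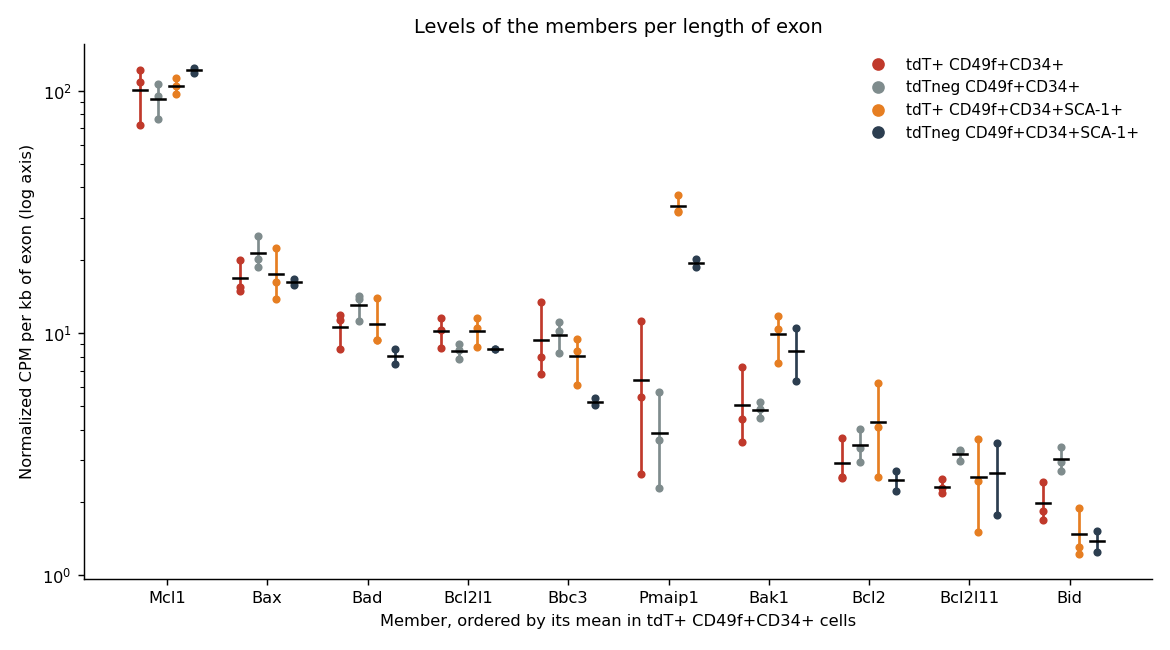
Normalized CPM per kilobase of exon (log axis) of the 10 members, with 1 point per library, a vertical line from the lowest to the highest library and a black bar at the mean of each of the 4 groups. *Mcl1* lies above all other members in every group, and *Pmaip1* moves from the middle of the order in CD49f+CD34+ cells to the place after *Mcl1* in CD49f+CD34+SCA-1+ cells.

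The place of *Pmaip1* in this order differed between the populations. By its mean level per kilobase it stood in rank 6 of the 10 members in tdT+ and in rank 7 in tdTneg CD49f+CD34+ cells, with 6.42 ± 4.37 and 3.87 ± 1.72 CPM per kilobase (SD, n = 3 each). Without the doubtful library, an omission chosen after the data were seen, it had a mean of 4.03 (n = 2) in tdT+ CD49f+CD34+ cells and stood in rank 7, below *Bak1* at 5.39. In CD49f+CD34+SCA-1+ cells it stood in rank 2, with 33.5 ± 3.2 (tdT+, SD, n = 3) and 19.5 ± 1.06 (tdTneg, SD, n = 2), above *Bax*. In the same sums per kilobase the 5 BH3-only genes made up 15.1% to 21.1% of the level of all 10 members in the CD49f+CD34+ libraries, 26% to 29.6% in the tdT+ and 18.4% to 19.4% in the tdTneg CD49f+CD34+SCA-1+ libraries. The share of the BH3-only genes was thus above the CD49f+CD34+ range in tdT+ CD49f+CD34+SCA-1+ cells, and inside that range in tdTneg CD49f+CD34+SCA-1+ cells. These shares are given as a description and were not tested.

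The first question was which members differ between the SCA-1+ population and the CD49f+CD34+ cells, averaged over tdT+ and tdTneg cells. A gene was called where it changed by more than 1 on the log2 scale and edgeR's quasi-likelihood test gave a p-value, adjusted over all 20307 genes by Benjamini-Hochberg, under 0.05. *Pmaip1* was the 1 member of 10 called, and it was higher in CD49f+CD34+SCA-1+ cells. Of all genes tested, 11.6% were called in either direction and 4.77% as higher, so the members' count lies near this background. Without the fold threshold 3 members passed, *Pmaip1*, *Bak1* and *Bid*, where 19.3% of all genes did, and 4 had an unadjusted p under 0.05, where 34.4% did. The median log2 fold change was -0.03 over the 10 members and -0.09 over all genes, and 5 members lay above 0 and 5 below.

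*Pmaip1* (ENSMUSG00000024521, GRCm38 chromosome 18, 66458533 to 66465565, forward strand, protein-coding) encodes NOXA, which binds chiefly MCL1 and is known as a target of p53. Its normalized CPM was 14.9, 30.6 and 7.16 in the 3 tdT+ CD49f+CD34+ libraries and 15.6, 6.26 and 9.88 in the 3 tdTneg CD49f+CD34+ libraries, in the order of the replicate numbers. In CD49f+CD34+SCA-1+ cells it was 86.1, 102 and 86.8 in the tdT+ and 51.1 and 55.2 in the tdTneg libraries. All 5 CD49f+CD34+SCA-1+ libraries lay above all 6 CD49f+CD34+ libraries, which held for 10.8% of all genes in one direction or the other. The log2 fold change was 2.36 (standard error 0.35, 95% confidence interval 1.58 to 3.13, 5.12-fold, edgeR adjusted p = 0.00156), which placed *Pmaip1* at rank 617 of the 20307 genes by p-value. Both ages showed the difference, with 14.9 and 15.6 against 86.1 and 51.1 CPM in the libraries of 29 weeks, and 6.26 to 30.6 against 55.2 to 102 in those of 32 weeks. With any 1 of the 11 libraries left out, the log2 fold change stayed between 2.17 and 2.69 and the adjusted p-value was at most 0.00837.

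**Figure D2:**
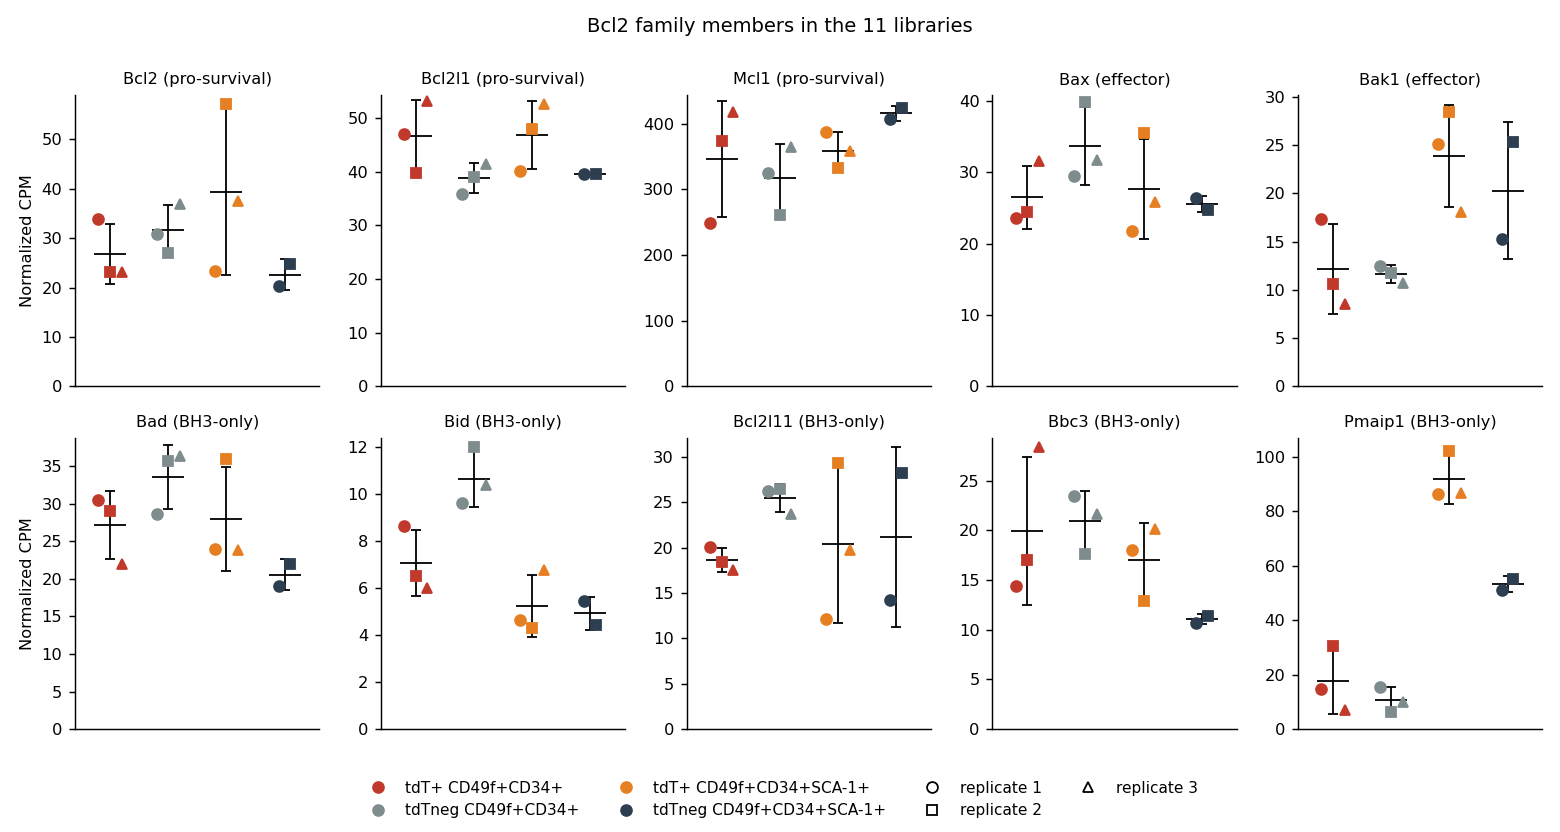
Normalized CPM (y axes, starting at 0 and scaled for each gene) of the 10 members in the 11 libraries, coloured by group, with symbols for the replicate number, a black bar at the group mean and whiskers of 1 SD. *Pmaip1* is at 51.1 to 102 in the 5 CD49f+CD34+SCA-1+ libraries and at 6.26 to 30.6 in the 6 CD49f+CD34+ libraries, whereas for each of the other members the populations overlap when tdT+ and tdTneg libraries are pooled.

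*Pmaip1* was also called within each tdT status. Within tdT+ cells the log2 fold change was 2.38 (standard error 0.48, edgeR adjusted p = 0.0111), where 8.45% of all genes were called and 2.91% as higher. It came to 2.01 to 3.05 with 1 library left out (adjusted p at most 0.0464, edgeR), and 3.05 was the value without the doubtful library. Within tdTneg cells it was 2.33 (standard error 0.51, edgeR adjusted p = 0.0282), where 4.74% were called and 3.29% as higher. The call within tdTneg cells rests on all of the libraries it compares but one. It was lost without tdTneg CD49f+CD34+ replicate 2 or 3 (adjusted p = 0.0595 and 0.11, edgeR), without tdTneg CD49f+CD34+SCA-1+ replicate 1 or 2 (0.155 and 0.108), and with the replicate number as a block (log2 fold change 2.11, adjusted p = 0.0632), while the log2 fold change stayed at 2.07 or more. The difference between both fold changes, 0.05 (standard error 0.68, 95% confidence interval -1.47 to 1.58, edgeR adjusted p = 0.993), could not be told from 0.

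Averaged over tdT status, the CD49f+CD34+SCA-1+ libraries differed from the CD49f+CD34+ libraries in markers of several cell types, as they did in *Pmaip1*. All 8 T cell markers were called as higher in CD49f+CD34+SCA-1+ cells, and their summed level was 397 to 1030 CPM in the tdT+ and 144 to 151 in the tdTneg libraries, against 36.9 to 75.6 and 24.3 to 29 in tdT+ and tdTneg CD49f+CD34+ libraries. Of the leukocyte markers 5 of 6 were called as higher, with sums of 304 to 559 and 102 to 235 against 58.6 to 124 and 7.22 to 44.5 CPM. All 5 Langerhans cell markers and 4 of the 6 markers of suprabasal interfollicular epidermis (IFE) were called as higher, and 7 of 8 bulge markers and 2 of 5 melanocyte markers as lower. The basal keratinocyte genes *Krt14* and *Itga6* were called as higher too (log2 fold change 1.28 and 1.02). Within tdT+ cells edgeR called 0 Langerhans cell and 0 suprabasal IFE markers as higher, where 2.91% of all genes were. Within tdTneg cells it called 4 and 3 of them, where 3.29% of all genes were. The median log2 fold change of the Langerhans cell markers was 0.98 within tdT+ and 3.8 within tdTneg cells. For the endothelial markers it was -1.94 and 4.86, and for *Pmaip1* the values were 2.38 and 2.33. Langerhans cell markers summed to 268 to 407 (tdT+) and 637 to 684 (tdTneg) CPM against 16 to 347 in the CD49f+CD34+ libraries, suprabasal IFE markers to 3820 to 11600 against 1420 to 5430, bulge markers to 8440 to 12600 against 15200 to 28200, and melanocyte markers to 5.73 to 34.4 against 25.4 to 63.1. No list had a marker at 0 in any library but for 1 fibroblast or melanocyte marker in some. Endothelial markers summed to 1680 to 1790 CPM in the 2 tdTneg CD49f+CD34+SCA-1+ libraries and to 30.6 to 62.6 in the tdT+ ones, where *Pmaip1* was higher. Among the CD49f+CD34+ libraries, the highest *Pmaip1* level (30.6) was that of the library labelled tdT+ replicate 2, which also had the highest endothelial (441), Langerhans cell (347), suprabasal IFE (5430), T cell (75.6) and leukocyte (124) sums of that population. Among the tdTneg CD49f+CD34+ libraries, replicate 2 had the lowest *Pmaip1* level (6.26). It had the highest endothelial (100), Langerhans cell (70.1) and leukocyte (44.5) sums of these, and the lowest T cell (24.3) and suprabasal IFE (1420) sums. The part of these other cells in the level of *Pmaip1* was not tested, and in bulk RNA fewer cells of a type and less RNA per cell cannot be told apart.

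**Figure D3:**
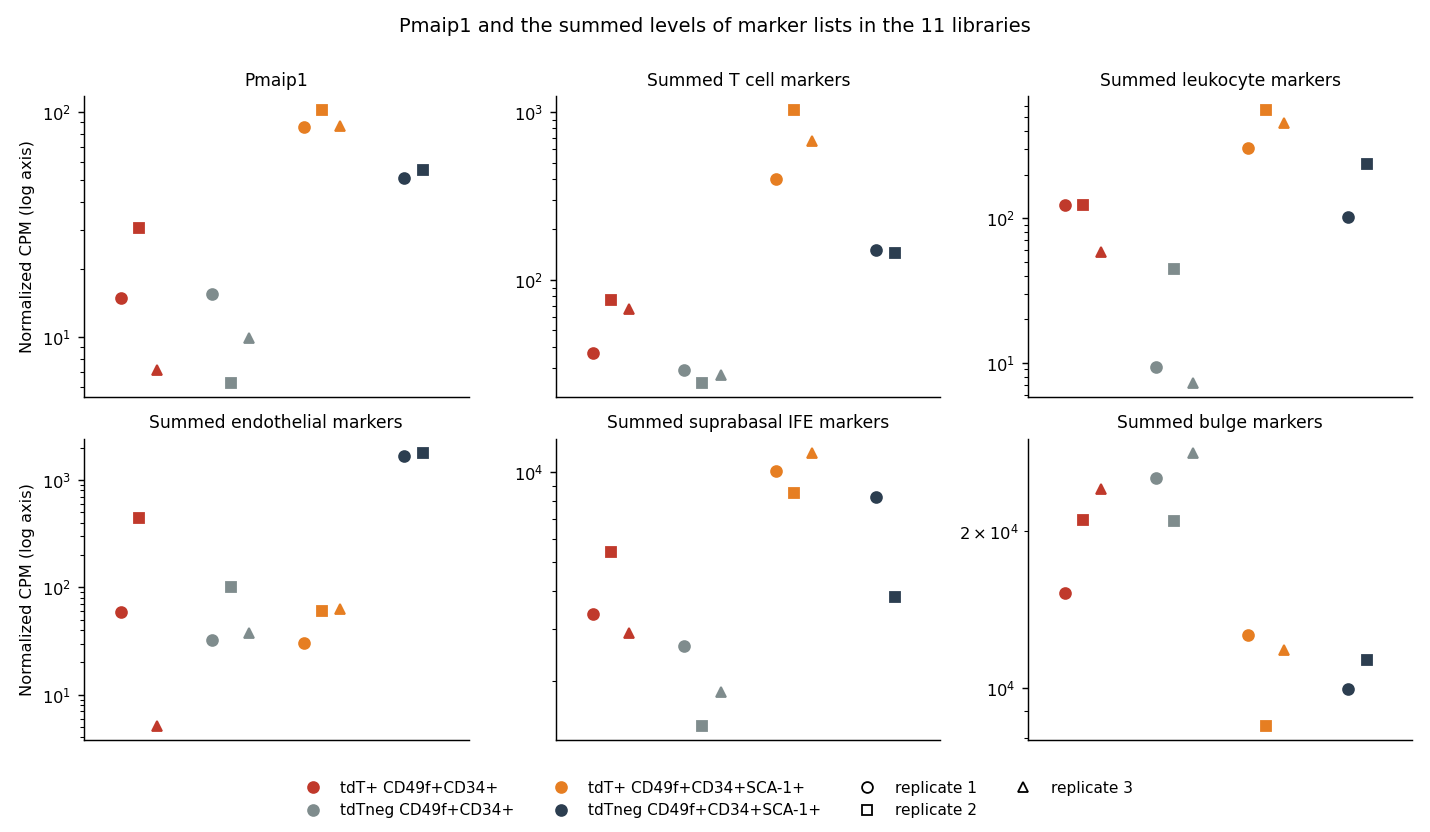
Normalized CPM (log axes) of *Pmaip1* and summed normalized CPM of 5 marker lists in the 11 libraries, coloured by group, with symbols for the replicate number. *Pmaip1*, T cell and leukocyte sums are highest in tdT+ CD49f+CD34+SCA-1+ cells, the endothelial sum is at 1680 to 1790 in tdTneg CD49f+CD34+SCA-1+ cells, and the bulge sum is lower in both SCA-1+ groups.

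Of the effector genes, whose products form the pores, *Bak1* passed the p threshold between the populations and *Bax* did not, and neither was called. *Bak1* (ENSMUSG00000057789, chromosome 17, 27019810 to 27029009, reverse strand) had 17.4, 10.6 and 8.54 normalized CPM in tdT+ and 12.5, 11.7 and 10.7 in tdTneg CD49f+CD34+ cells, and 25.1, 28.4 and 18.1 in tdT+ and 15.3 and 25.3 in tdTneg CD49f+CD34+SCA-1+ cells. The lowest CD49f+CD34+SCA-1+ library lay below the highest CD49f+CD34+ library, so the populations overlapped by these 2 libraries. The log2 fold change was 0.88 (standard error 0.23, 95% confidence interval 0.37 to 1.4, edgeR adjusted p = 0.0256), which passed the p threshold but not the fold threshold. It passed both without tdT+ CD49f+CD34+ replicate 1 (1.06, adjusted p = 0.0102, edgeR) or without tdTneg CD49f+CD34+SCA-1+ replicate 1 (1.04, adjusted p = 0.0388). It missed the p threshold in 4 of the 11 fits that left out 1 library, with an adjusted p of 0.124 without tdTneg CD49f+CD34+SCA-1+ replicate 2 and of 0.0517 when the doubtful library, labelled tdT+ CD49f+CD34+ replicate 2, was omitted. *Bak1* shares 18.2% and 7.35% of its exon length with 2 annotated genes on the opposite strand, both named *Ggnbp1*, and since the kit does not mark strand, reads there cannot be told apart.

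*Bax* (ENSMUSG00000003873, chromosome 7, 45461697 to 45466898, reverse strand) ranged from 21.8 to 35.5 CPM (median 25.8) in the 5 CD49f+CD34+SCA-1+ and from 23.6 to 39.9 (median 30.6) in the 6 CD49f+CD34+ libraries. The populations differed by a log2 fold change of -0.17 for *Bax* (standard error 0.16, 95% confidence interval -0.53 to 0.19, edgeR adjusted p = 0.507). The difference between both genes was not tested. *Bax* shares 12.2% of its exon length with the annotated gene *Gm45808* on the same strand.

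Of the pro-survival genes none passed the test between the populations, by edgeR or by DESeq2, and none had an unadjusted p under 0.05. *Mcl1* (ENSMUSG00000038612, chromosome 3, 95658788 to 95663176) had 248, 374 and 417 CPM in tdT+ and 325, 261 and 364 in tdTneg CD49f+CD34+ cells, and 387, 332 and 358 in tdT+ and 407 and 424 in tdTneg CD49f+CD34+SCA-1+ cells. The populations overlapped over all 11 libraries but not within tdTneg cells, and the log2 fold change was 0.22 (standard error 0.15, 95% confidence interval -0.11 to 0.56), or 0.39 within tdTneg cells (edgeR adjusted p = 0.351). *Bcl2l1* (ENSMUSG00000007659, chromosome 2, 152780668 to 152831728), whose protein BCL-XL holds BAX and BAK, varied least of the 3, from 35.8 to 53.2 CPM over all 11 libraries, with a log2 fold change of 0.02 (95% confidence interval -0.24 to 0.27). *Bcl2* (ENSMUSG00000057329, chromosome 1, 106538178 to 106714274), the founding member of the family, had 33.8, 23.2 and 23.2 CPM in tdT+ and 30.8, 27 and 37 in tdTneg CD49f+CD34+ cells, and 23.4, 57.1 and 37.6 in tdT+ and 20.4 and 24.8 in tdTneg CD49f+CD34+SCA-1+ cells. Its log2 fold change was 0.04 (95% confidence interval -0.46 to 0.54), and 6.09% of its exon length is shared with the antisense gene *D630008O14Rik*. For all 3 genes the interval of this average over tdT status excludes a change of 1 on the log2 scale in either direction. For *Bcl2* it averages values of opposite sign, and the intervals within each tdT status do not exclude such a change. *Bcl2* lay at 0.56 within tdT+ cells (95% confidence interval -0.12 to 1.23) and at -0.48 within tdTneg cells (-1.24 to 0.28). Per kilobase, *Bcl2* was lower than *Bcl2l1* in every library, with a log2 ratio of -2.2 to -0.74.

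Averaged over tdT status, the other 4 BH3-only genes had log2 fold changes below 0 between the populations, where the median over all genes was -0.09. By edgeR only *Bid* of them passed the p threshold. Within tdT+ cells *Bid* (-0.43) and *Bbc3* (-0.23) lay below 0, and *Bad* (0.04) and *Bcl2l11* (0.12) lay above it. *Bid* (ENSMUSG00000004446, chromosome 6, 120891930 to 120916853, reverse strand) encodes a protein that *Casp8* of the death receptor pathway cuts into its active form. It had 8.66, 6.53 and 6.01 CPM in tdT+ and 9.63, 12 and 10.4 in tdTneg CD49f+CD34+ cells, and 4.66, 4.32 and 6.76 in tdT+ and 5.44 and 4.44 in tdTneg CD49f+CD34+SCA-1+ cells. The lowest levels were those of CD49f+CD34+SCA-1+ cells, and only replicate 3 of the tdT+ group reached into the range of CD49f+CD34+ cells. The log2 fold change was -0.77 (standard error 0.22, 95% confidence interval -1.27 to -0.27, edgeR adjusted p = 0.0389), again past the p threshold and not the fold threshold, and the adjusted p was 0.064 with the replicate number as a block. It missed the p threshold in 9 of the 11 fits that left out 1 library, with an adjusted p of 0.199 without tdTneg CD49f+CD34+SCA-1+ replicate 2 and of 0.054 when the doubtful library, labelled tdT+ CD49f+CD34+ replicate 2, was omitted. Within tdTneg cells, where its groups did not overlap (as for 46.3% of all genes with these 2 and 3 libraries), the log2 fold change was -1.11 (standard error 0.34, edgeR adjusted p = 0.092), and DESeq2 called *Bid* there (-1.03, adjusted p = 0.0119). DESeq2 called 5.25% of all genes in that comparison. *Bid* shares 17.7% of its exon length with *Bcl2l13* on the opposite strand, a gene called as higher in CD49f+CD34+SCA-1+ cells within tdT+ cells, and it was the least abundant member per kilobase in all 4 groups.

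*Bbc3* (ENSMUSG00000002083, chromosome 7, 16308393 to 16318205) encodes PUMA, which binds all pro-survival proteins and, like NOXA, is a target of p53. Its CPM was 14.4, 17 and 28.4 in tdT+ and 23.5, 17.6 and 21.6 in tdTneg CD49f+CD34+ cells, and 18, 12.9 and 20.1 in tdT+ and 10.7 and 11.4 in tdTneg CD49f+CD34+SCA-1+ cells. The 2 tdTneg CD49f+CD34+SCA-1+ libraries were the lowest of all 11. The log2 fold change was -0.57 (standard error 0.21, 95% confidence interval -1.05 to -0.09). The adjusted p of 0.0892 (edgeR) missed the threshold, and that of DESeq2 passed it (-0.55, adjusted p = 0.0468), with neither past the fold threshold. The value of *Bbc3* thus lay on the other side of 0 from that of *Pmaip1*, whose interval starts at 1.58.

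*Bad* (ENSMUSG00000024959, chromosome 19, 6941861 to 6951899) encodes a protein that binds BCL2 and BCL-XL unless it is phosphorylated by survival kinases, and *Bcl2l11* (ENSMUSG00000027381, chromosome 2, 128126038 to 128162547) encodes BIM, which binds all pro-survival proteins. *Bad* ranged from 19.1 to 35.9 CPM in CD49f+CD34+SCA-1+ and from 22 to 36.3 in CD49f+CD34+ cells, with a log2 fold change of -0.33 (95% confidence interval -0.69 to 0.02, edgeR adjusted p = 0.171). Within tdT+ cells the libraries of the populations did not overlap for 2 of the 10 members, against 30.4% of all genes. Within tdTneg cells they did not overlap for 8 of the 10 members, against 46.3% of all genes. *Bad* was one of these, at 19.1 and 22 against 28.7 to 36.3 CPM, and its log2 fold change was -0.71 (standard error 0.24, edgeR adjusted p = 0.126). *Bad* shares 20.5% of its exon length with *Gpr137* on the opposite strand. *Bcl2l11* had 12.1 to 29.3 CPM in CD49f+CD34+SCA-1+ cells, a range wider than that of CD49f+CD34+ cells at 17.5 to 26.5, and a log2 fold change of -0.07 (95% confidence interval -0.61 to 0.47).

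**Figure D4:**
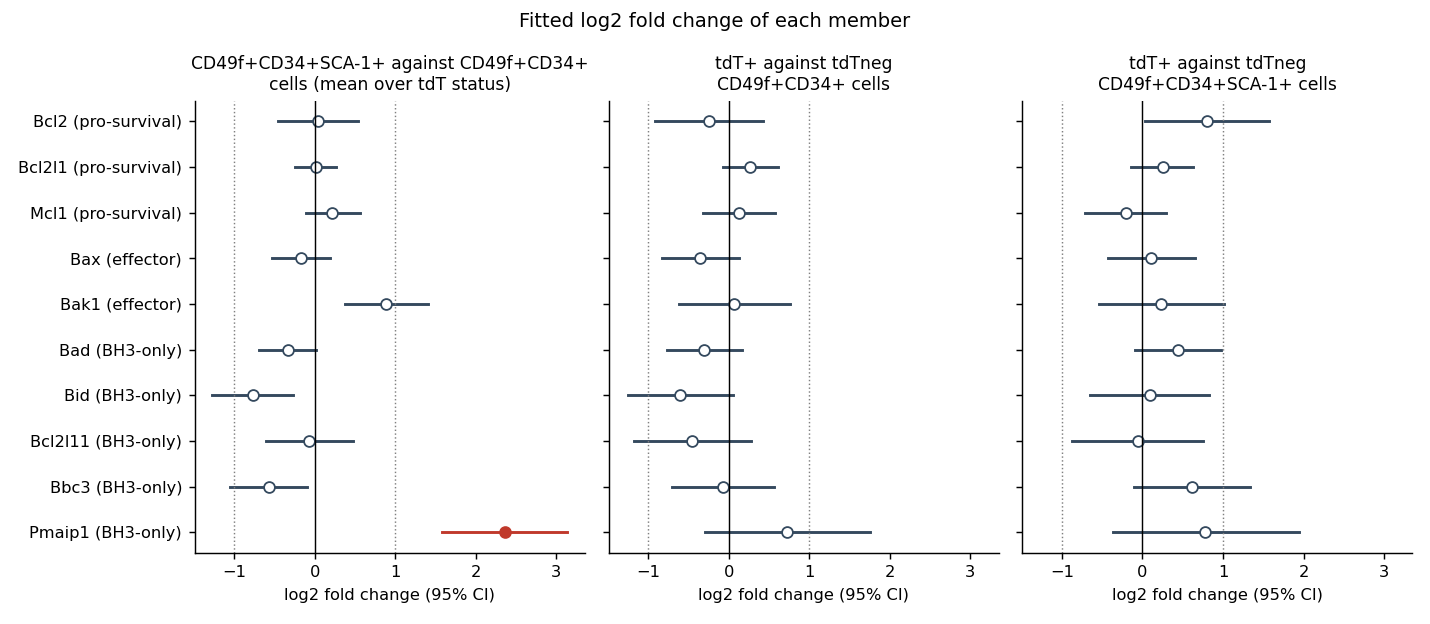
Log2 fold change of each member (x axes, points) with its 95% confidence interval (lines) between the populations and between tdT+ and tdTneg cells of each population, with dotted lines at a log2 fold change of -1 and 1 and a filled point where the gene was called. *Pmaip1* is the only filled point, at 2.36 between the populations, and 6 of the 10 intervals of that comparison include 0.

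The second question was whether tdT+ and tdTneg cells of a population differ in these genes. In CD49f+CD34+ cells no member of 10 was called by edgeR or by DESeq2 and none had an unadjusted p under 0.05, where edgeR called 0.00985% of all genes and 8.42% of them passed the unadjusted threshold. The highest fold change was that of *Pmaip1*, at 0.73 on the log2 scale (95% confidence interval -0.29 to 1.75), and it came to 0.06 to 1.12 with 1 library left out. The 0.06 was the value without the doubtful tdT+ replicate 2, which at 30.6 CPM was the highest of the 6 libraries, while the other tdT+ libraries, at 7.16 and 14.9, lay within the tdTneg range of 6.26 to 15.6. *Bid* was lower in all 3 libraries labelled tdT+ (6.01 to 8.66 CPM) than in the tdTneg ones (9.63 to 12), with a log2 fold change of -0.6 (95% confidence interval -1.25 to 0.06, edgeR adjusted p = 0.622). *Bcl2l11* was likewise lower in all libraries labelled tdT+, at 17.5 to 20.1 against 23.7 to 26.5 CPM, with a log2 fold change of -0.45 (95% confidence interval -1.18 to 0.28, edgeR adjusted p = 0.751). Without the doubtful library the log2 fold changes were -0.55 (*Bid*, edgeR adjusted p = 0.782) and -0.44 (*Bcl2l11*, edgeR adjusted p = 0.861). The groups did not overlap for 2 of the 10 members, and for 16% of all genes. The pro-survival genes had log2 fold changes of -0.24 (*Bcl2*), 0.27 (*Bcl2l1*) and 0.13 (*Mcl1*), all with intervals that include 0.

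In CD49f+CD34+SCA-1+ cells no member was called either, by edgeR or by DESeq2, where edgeR called 2.31% of all genes. The 1 member with an unadjusted p under 0.05, where 14.6% of all genes had one, was *Bcl2*, with a log2 fold change of 0.8 in tdT+ cells (standard error 0.34, 95% confidence interval 0.03 to 1.57, edgeR adjusted p = 0.32). Without tdT+ replicate 2, at 57.1 CPM, the log2 fold change was 0.38 (adjusted p = 0.685, edgeR), and tdT+ replicate 1, at 23.4, lay between the tdTneg libraries at 20.4 and 24.8. *Pmaip1* was higher in all 3 tdT+ libraries (86.1 to 102 CPM) than in both tdTneg libraries (51.1 and 55.2), with a log2 fold change of 0.78 (standard error 0.52, 95% confidence interval -0.37 to 1.94, edgeR adjusted p = 0.563). *Bbc3*, *Bad* and *Bcl2l1* were also higher in every tdT+ than in every tdTneg library, by 0.62, 0.44 and 0.25 on the log2 scale, and *Mcl1* was lower in every one, with a log2 fold change of -0.21. With 1 library left out these values ran from 0.48 to 0.73 (*Bbc3*), 0.16 to 0.54 (*Bad*), 0.15 to 0.35 (*Bcl2l1*) and -0.27 to -0.21 (*Mcl1*). None of these genes passed the test. The groups did not overlap for 5 of the 10 members, and for 33% of all genes with these 3 and 2 libraries. T cell sums also differed between both groups, at 397 to 1030 against 144 to 151 CPM, and endothelial sums, at 30.6 to 62.6 against 1680 to 1790. Their part in these values was not tested.

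Whether the effect of tdT differs from one population to the other was tested as well, and no member was called by edgeR or by DESeq2, where edgeR called 0.389% of all genes. *Bcl2* (1.04, standard error 0.46, edgeR adjusted p = 0.394) and *Bad* (0.74, standard error 0.32, edgeR adjusted p = 0.384) had unadjusted p-values under 0.05, as 12.4% of all genes did. With 1 library left out their values ran from 0.59 to 1.3 (*Bcl2*) and from 0.44 to 0.84 (*Bad*). All 5 BH3-only genes and both effectors lay above 0 in this comparison, with a median of 0.68 and 0.31 on the log2 scale against 0.05 over all genes. Other lists lay off 0 in the same comparison, with 12 of 15 immediate early and dissociation response genes above 0 (median 0.62) and 14 of 18 genes of p53 and its targets (median 0.33), and with medians of -6.55 for the endothelial, -3.02 for the Langerhans cell and -1.13 for the bulge markers. Their part in the values of the members was not tested. With RLE size factors in place of TMM the median over all genes moved from 0.048 to -0.071, and the value of *Pmaip1* moved with it from 0.05 to -0.07. *Pmaip1* lay near that median under both scalings, so its sign in this comparison gives no direction of its own. Without the doubtful library its value was 0.72.

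The family has further members that were not in the list, and of 15 such genes 12 passed the filter. *Bcl2a1a*, *Bcl2l10* and *Hrk* did not and had at most 0.568 normalized CPM in any library. Between the populations, averaged over both tdT states, none of the 12 was called by edgeR or by DESeq2, where edgeR called 11.6% of all genes. An unadjusted p under 0.05 was found for 3 of them by edgeR, and for 34.4% of all genes. *Bcl2l13*, which encodes a mitochondrial outer membrane protein known as a receptor for mitophagy, had 81.1 ± 12.9 and 93.9 ± 15.4 CPM in tdT+ and tdTneg CD49f+CD34+ cells (SD, n = 3 each) and 172 ± 21.8 (SD, n = 3) and 132 ± 5.84 (SD, n = 2) in the CD49f+CD34+SCA-1+ groups. Its log2 fold change was 0.78 (standard error 0.12, edgeR adjusted p = 0.00213), past the p threshold only, and within tdT+ cells it rose by 1.08 (standard error 0.17, edgeR adjusted p = 0.00317) and was called. *Bok*, an effector-like gene related to *Bax* and *Bak1*, had 179 ± 25.7 and 214 ± 7.23 CPM in tdT+ and tdTneg CD49f+CD34+ cells (SD, n = 3 each) against 159 ± 15.9 (SD, n = 3) and 143 ± 13.7 (SD, n = 2) in the CD49f+CD34+SCA-1+ groups, a log2 fold change of -0.38 (edgeR adjusted p = 0.0339, standard error 0.11).

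The pro-survival gene *Bcl2l2* (BCL-W) was at 56.1 to 76.3 CPM in all libraries, with a log2 fold change of -0.03 (standard error 0.1). *Bcl2a1b* and *Bcl2a1d*, copies of a pro-survival gene of blood cells that share sequence and so are uncertain in such counts, stayed at 1.6 CPM or less. The BH3-only gene *Bmf* was at 5.68 to 25.5 CPM and *Bik* at 0.284 to 5.03, and neither passed the test between the populations (edgeR adjusted p = 0.277 and 0.472). Among *Bcl2l12*, *Bcl2l14*, *Bcl2l15*, *Bnip3* and *Bnip3l*, of which the last are receptors for mitophagy, the log2 fold changes ran from 0.02 to 0.95 and the smallest adjusted p was 0.124 (*Bnip3*, edgeR). Between tdT+ and tdTneg cells edgeR called none of the 12 in either population. An unadjusted p under 0.05 was found for 2 in CD49f+CD34+ cells, where 8.42% of all genes had one. In the SCA-1+ population it was found for 1, where 14.6% of all genes had one. DESeq2 called *Bcl2l14* in CD49f+CD34+ cells and *Bik* in CD49f+CD34+SCA-1+ cells, where it called 0.903% and 2.96% of all genes.

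Genes that act upstream and downstream of the members were read from lists of the pathway and compared between the populations, averaged over both tdT states. Of 18 genes of p53 and its targets, 4 were called, all as higher in CD49f+CD34+SCA-1+ cells, where 4.77% of all genes were. These were *Eda2r* (1.48, adjusted p = 0.00312), the cell cycle inhibitor gene *Cdkn1a* (1.36, adjusted p = 0.000636), *Gadd45a* (1.34, adjusted p = 0.00233) and *Sesn2* (1.02, adjusted p = 0.0133), as log2 fold changes by edgeR, and DESeq2 called the same 4 genes. *Cdkn1a* had 145 ± 41.1 and 94.5 ± 13.4 CPM in tdT+ and tdTneg CD49f+CD34+ cells (SD, n = 3 each) and 335 ± 59.7 (SD, n = 3) and 271 ± 19.8 (SD, n = 2) in the CD49f+CD34+SCA-1+ groups. The list as a whole had a median log2 fold change of 0.03, with 11 genes above 0 and 7 below, and 4 more genes passed the p threshold only, *Aen* at 0.72 and *Sesn1*, *Phlda3* and *Trp53inp1* at -0.67, -0.58 and -0.44. *Trp53* itself had 94.1 ± 5.68 to 129 ± 17.8 CPM over the groups (SD, n = 2 or 3).

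Of 13 genes of the death receptor pathway, which reaches the Bcl2 family through *Bid*, 2 were called as higher by edgeR, where 4.77% of all genes were, *Tnf* (2.95, standard error 0.38, edgeR adjusted p = 0.000803) and *Ripk3* (1.01, standard error 0.32, edgeR adjusted p = 0.0486). DESeq2 called these and *Tnfsf10*. *Tnf* was at 10.8 ± 3.13 (SD, n = 3) and 6.7 ± 1.13 (SD, n = 2) CPM in the CD49f+CD34+SCA-1+ groups, the populations in which T cell and Langerhans cell sums were also highest. *Casp8*, whose product cuts BID, lay at 0.8 (standard error 0.17, edgeR adjusted p = 0.0112). Of 21 genes of the apoptosome, the caspases and their inhibitors, which act after the mitochondrial pore, 1 was called as higher by edgeR and by DESeq2, a share near that of all genes, *Dffa* (1, standard error 0.14, edgeR adjusted p = 0.00109), which encodes the inhibitor of the apoptotic nuclease and lay just past the fold threshold. Of 14 other regulators of the members none was called by edgeR or by DESeq2. By edgeR, 5 passed the p threshold, where 19.3% of all genes did. The same number had an unadjusted p under 0.05, where 34.4% of all genes did, so this count lies near the background. *Fbxw7*, part of a ubiquitin ligase that acts on MCL1, lay at 0.73 (adjusted p = 0.00317), and within tdT+ cells edgeR called it as higher (1.01, adjusted p = 0.00467) and DESeq2 did not. *Foxo3*, a transcription factor known to act on *Bcl2l11* and *Bbc3*, lay at -0.66 (edgeR adjusted p = 0.00808), and its part in their levels was not tested. Within tdTneg cells DESeq2 called 5 genes of the death receptor list and 3 of the apoptosome list as higher, and edgeR called *Tnf* alone. Of all genes in that comparison, DESeq2 called 5.25% of 41302 and edgeR 4.74% of 20307 in either direction. Of 15 immediate early and dissociation response genes none was called by edgeR or by DESeq2, and 3 had an unadjusted p under 0.05, where 34.4% of all genes did. The summed level of the 15 genes was 13800 to 23400 CPM in CD49f+CD34+ and 16200 to 22300 in CD49f+CD34+SCA-1+ libraries.

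Between tdT+ and tdTneg cells of either population edgeR called none of the genes of these 5 lists. Per list 0 to 3 genes had an unadjusted p under 0.05 in CD49f+CD34+ cells, where 8.42% of all genes had one. In CD49f+CD34+SCA-1+ cells 1 to 5 genes per list had one, where 14.6% of all genes did. In tdT+ CD49f+CD34+ cells DESeq2 called *Tnf* and *Eda2r* as higher, and in tdT+ CD49f+CD34+SCA-1+ cells *Eda2r* as lower. It called 0.903% of all genes in the CD49f+CD34+ comparison and 2.96% in the CD49f+CD34+SCA-1+ comparison, in either direction.

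For each pro-survival gene the 3 genes with the most similar profile over the 11 libraries were found by the root mean square difference of centred log2 CPM. *Mcl1* was closest to *Ssh3* (0.095), *Nup153* (0.106) and *Zfand2a* (0.109), with its own SD over the libraries at 0.258. *Bcl2l1*, with an SD of 0.191, was closest to *Pop5* (0.131), *Slc25a16* (0.133) and *Abhd11* (0.135), and *Bcl2*, with an SD of 0.434, to *Tma7* (0.176), *Snrpg* (0.178) and *Nip7* (0.183). No member of the family was among these 9 genes.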

How the data were processed

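RNA of sorted dorsal skin cells was sequenced in 11 libraries of 4 groups, each from 2 pooled mice. Per the labels and the methods of the study, the authors prepared libraries with the TruSeq RNA v2 kit, aligned reads to mm10 with STAR and counted them on Ensembl release 96 genes with featureCounts, and the deposited values are counts per gene without normalization. This kit is known not to mark strand, and the strand setting of the counting is not given in the sources used here. Groups and replicate numbers were taken from the labels, and the row outside the Ensembl genes was left out of totals and tests.

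Tests used edgeR 4.0.16 in R 4.3.3, with TMM scaling, filterByExpr on the 4 groups and the quasi-likelihood test in 1 fit over all libraries. A call needed an adjusted p-value below 0.05 together with a log2 fold change above 1 or below -1. Alternatives were DESeq2 1.42.0, RLE size factors, at least 10 counts in every library or 1 in any, no fold threshold, only the groups compared, the replicate number as a block and omission of each library. Where a group keeps 1 library, that library is taken to vary like the other groups. Normalized CPM use TMM library sizes, and CPM per kilobase divide them by the length of all exons of a gene in the Ensembl 96 annotation of GRCm38. Depth, from 17409131 to 46542177 counts, limits the precision of low genes most. Counts of a gene cover reads, not molecules.

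The replicate number is read as a pool of mice shared by the libraries of that number. For 15 same-numbered pairs of libraries, deviations from the group mean correlated across genes with a median r of 0.08 (-0.42 to 0.59), and for 30 other pairs of -0.02. Named were all 10 members, every other family gene past the filter, genes of the pathway lists called by edgeR and, for the pro-survival genes, the 3 nearest profiles (log2 CPM with a prior count of 2). Of 162 genes in the lists 161 were matched once, and *Ddit3*, matched to 2 IDs, was left out. *Casp8*, *Trp53*, *Foxo3*, *Tnfsf10* and the p53 targets past the p threshold only were chosen after their values were seen. The members and the lists were chosen with earlier results of these data known. Simulated counts with known changes were used to test the scripts. Figures used Python 3.11.15 and matplotlib 3.10.9. Sequences are not shown.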

Additional observations from a re-analysis of the deposited data

Results flagged for a closer look

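The row of the files that is no Ensembl gene was in no comparison between groups, and it stood above the tdTneg libraries, at most 4.89 CPM, in 5 tdT+ libraries. It had 133 CPM in tdT+ CD49f+CD34+ replicate 1 and 252 in replicate 3, and 254, 224 and 307 CPM in tdT+ CD49f+CD34+SCA-1+ replicates 1, 2 and 3. The library labelled tdT+ CD49f+CD34+ replicate 2 had 2.05 CPM (37 counts, 95% Wilson interval 1.49 to 2.83, counting error only), and *Pmaip1* was higher there, at 30.6 CPM, than in the other 5 CD49f+CD34+ libraries, at 6.26 to 15.6. Without that library the log2 fold change of *Pmaip1* between the populations was 2.69. No member had a library far from the others of its population in the 20 groups tested with Dixon's ratio, of which chance gives about 1 in 20.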

How the results depend on the processing

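The call of *Pmaip1* between the populations, averaged over both tdT states and within tdT+ cells, held under every alternative run. Between the populations the number of members called was 3 with no fold threshold, and 1 to 2 with 1 library left out (*Bak1* was added). Within tdT+ cells it was 1 to 2, and within tdTneg cells 2 with DESeq2 (*Bid* was added), 0 with the replicate block and 0 to 1 with 1 library left out. The pairing by replicate number changed no other call, and no alternative called a member between tdT+ and tdTneg cells or in the difference between the populations. DESeq2 called 5.25% of all genes between the populations within tdTneg cells. The cause of the changes in these counts was not tested. Depth limits *Bid* most, with 76 counts in its lowest library.

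Some values that passed no test turned sign. *Bbc3* between tdT+ and tdTneg CD49f+CD34+ cells came to 0.01 with DESeq2 or RLE size factors and 0.03 with at least 10 counts in every library, and *Bcl2l1* between the populations to -0.01 with at least 1 count in any. Within tdT+ cells *Bcl2l1* came to -0.03 with DESeq2, RLE size factors or only the groups compared, and to -0.05 and -0.06 with the filters of at least 10 and 1 counts, *Mcl1* to -0.01 with both filters, *Bax* to 0 with the second, and *Bad* to -0.02 and -0.03. The difference in the effect of tdT for *Pmaip1* came to -0.07 with DESeq2 or RLE size factors, -0.1 with at least 10 and -0.03 with at least 1 count.

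With 1 library left out, signs turned in these ranges of log2 fold change. In tdT+ against tdTneg CD49f+CD34+ cells they were -0.03 to 0.32 (*Mcl1*), -0.28 to 0.27 (*Bak1*) and -0.42 to 0.12 (*Bbc3*), and in CD49f+CD34+SCA-1+ cells -0.17 to 0.26 (*Bax*), -0.09 to 0.59 (*Bak1*), -0.14 to 0.23 (*Bid*) and -0.48 to 0.46 (*Bcl2l11*). Between the populations they were -0.13 to 0.17 (*Bcl2*), -0.04 to 0.07 (*Bcl2l1*) and -0.33 to 0.13 (*Bcl2l11*). Within tdT+ cells they were -0.1 to 0.11 (*Bcl2l1*), -0.14 to 0.21 (*Mcl1*), -0.18 to 0.21 (*Bax*), -0.21 to 0.14 (*Bad*), -0.26 to 0.39 (*Bcl2l11*) and -0.42 to 0.12 (*Bbc3*), and within tdTneg cells -0.02 to 0.09 (*Bcl2l1*) and -0.79 to 0.13 (*Bcl2l11*). For the difference in the effect of tdT they were -0.13 to 0.08 (*Bcl2l1*), -0.14 to 0.54 (*Bak1*), -0.04 to 0.93 (*Bcl2l11*) and -0.34 to 0.72 (*Pmaip1*).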
